A study of Mus musculus with 15 samples.

Results

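The 10 genes described here encode the structural proteins of the microvillus, the actin-filled finger of the enterocyte surface. They are Vil1, Espn, Pls1, Eps8, Ezr, Myo1a, Myo7b, Cdhr2, Cdhr5 and Ush1c, taken by name from 19938 measured genes, and all 10 were found, each with 1 probe set. They were measured on 15 arrays of epithelial cells from the small intestine of wild-type BALB/c mice, 10 weeks of age. Each of 5 groups held 3 arrays. The control group received no agent, and the other groups received a GST-RANKL fusion protein intraperitoneally for 1, 2, 3 or 4 days. RANKL, a cytokine of the TNF family, signals through RANK. No group given GST alone is among the samples, so what GST or the repeated daily injections did and what RANKL did cannot be told apart. The cells were whole detached epithelium (30 mM EDTA for 10 min), not sorted M cells, and in such bulk samples fewer cells of a type and less RNA per cell cannot be told apart. Whether each array is a different animal is not stated, and the spread behind each p-value is that between arrays, which may be technical.

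A microvillus is held up by a bundle of parallel actin filaments. Villin, espin and plastin 1 cross-link the filaments, EPS8 sits at their tips, and ezrin and the class I myosin Myo1a tie the bundle to the plasma membrane. Neighbouring microvilli are joined at their tips by a complex of the protocadherins Cdhr2 and Cdhr5, which the scaffold harmonin (Ush1c) and the motor Myo7b hold in place. M cells, the antigen-sampling cells whose formation RANKL drives, are known for a reduced and irregular brush border, and the comparison asks whether transcripts of these proteins differed as M cell genes came on.

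The arrays were close in overall signal, with deposited medians of 146.9 to 166.9 intensity units. RANKL day 1 replicate 2 stood apart, with the highest median and the narrowest interquartile range of log2 intensity (1.95, against 2.26 to 2.55 on the others). The sucrase-isomaltase gene Sis, an enterocyte marker, read 12.96 to 13.56 on the log2 scale on all 15 arrays. Cd3e, a T cell gene, read 8.75 to 9.78 and Col1a1, a fibroblast gene, 7.94 to 8.85, so lymphocyte and stromal transcripts were present too. Of 12 M cell markers, 9, 11, 10 and 9 rose on days 1 to 4 and none fell. Gp2, an M cell receptor, averaged 6.04 ± 0.16 (SD, n = 3) in controls, 6.02 ± 0.22 on day 1, 9.79 ± 0.21 on day 2, 10.99 ± 0.76 on day 3 and 9.36 ± 0.70 on day 4. Umod, with means of 6.29 to 6.42 in the 5 groups, did not pass the test on any day.

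No member passed the test on any day. A gene was called at a Benjamini-Hochberg adjusted p under 0.05 over all genes in limma, and by that rule 0 of 10 members were called on day 1, when 3.94% of all genes were (1.94% lower). The count was also 0 of 10 on day 2 (2.57% of all genes, 1.05% lower), on day 3 (2.96%, 1.24% lower) and on day 4 (0.908%, 0.0903% lower). An F test over the 4 days called 0 of 10, against 3.6% of all genes. Its unadjusted p was under 0.05 for 5 members (Espn, Myo7b, Cdhr2, Ush1c and Ezr) and for 15.7% of all genes. The differences had a common sign all the same, since the mean of each of the 10 genes lay below its control mean on all 4 days, which held for 24% of all genes. The 4 comparisons share their control arrays, so these signs are not 4 separate observations.

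Levels came nearest to control on day 4 and lay farthest from it on days 1 and 3. The median log2 difference over the members was -0.23 on day 1 (range -0.32 to -0.03), -0.11 on day 2 (-0.29 to -0.02), -0.21 on day 3 (-0.46 to -0.16) and -0.07 on day 4 (-0.21 to -0.01). Leaving out single arrays moved the medians of all 4 days. Without control replicate 1 the median was -0.290 on day 1, -0.191 on day 2, -0.324 on day 3 and -0.154 on day 4. Without RANKL day 1 replicate 1 it was -0.155 on day 1, and without control replicate 2 it was -0.069 on day 2. With median centring the day 4 median was -0.004. In linear terms the median member stood at 85.3%, 92.6%, 86.3% and 95.4% of control. Over all 19938 genes the medians were -0.005, -0.019, -0.010 and 0.006. With no adjustment for multiple testing, p was under 0.05 for 5 members on day 1, 1 on day 2, 7 on day 3 and 0 on day 4, all lower, while 8.65%, 6.47%, 6.71% and 2.39% of all genes were lower by that rule. In either direction it took in 14.9%, 11.9%, 16.2% and 9.66% of all genes. The 3 RANKL arrays lay below all 3 controls for 2 members on day 1, 2 on day 2, 6 on day 3 and 2 on day 4, where 8.51%, 9.44%, 9.9% and 6.16% of all genes did so. The lowest end of any member's 95% interval was -0.72, for Cdhr2 on day 3, or 60.6% of control.

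**Figure D1:**
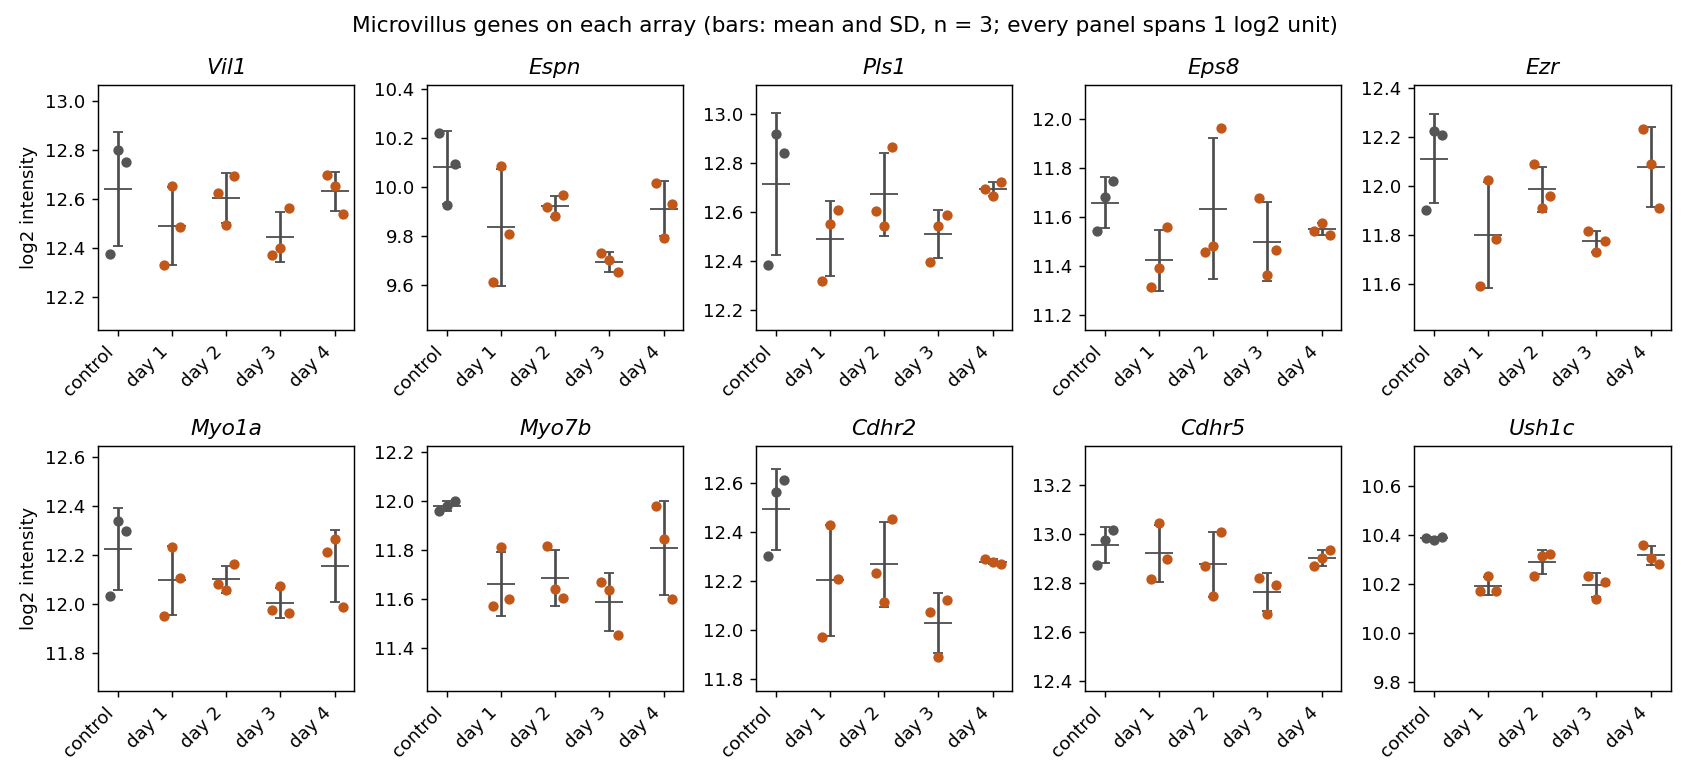
The log2 intensity of each of the 10 microvillus genes on each array (points), by group, with the group mean and SD (n = 3). Every panel spans 1 log2 unit. Group means sit below control in every panel on every day, while single arrays overlap the controls for most genes and days.

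Of the actin cross-linker transcripts, that of espin was the most displaced. Espn (probe set 10518882), which makes the tight bundles of microvilli and of hair cell stereocilia, read 10.22, 9.93 and 10.09 log2 units in controls and 9.73, 9.70 and 9.65 on day 3. All 3 day 3 arrays lay below all 3 controls, with a difference of -0.39 ± 0.11 (SE; 76.6% of control; limma adjusted p = 0.0762). On day 1 the arrays read 9.61, 10.09 and 9.81, so that replicate 2 lay inside the control range, and the difference was -0.25 ± 0.11 (adjusted p = 0.299). Without RANKL day 1 replicate 2, the array that stood apart, Espn passed the test on day 1 (adjusted p = 0.041) and on day 3 (0.0194), and without RANKL day 1 replicate 1 it passed on day 3 (0.040). Day 2 (9.88 to 9.97) and day 4 (9.79 to 10.02) overlapped the controls.

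Transcripts of villin, the bundling and severing protein used as a marker of the brush border, overlapped their controls on every day. Vil1 (10347364) read 12.37, 12.80 and 12.75 in controls, 12.33, 12.65 and 12.49 on day 1, 12.62, 12.49 and 12.70 on day 2, 12.37, 12.40 and 12.56 on day 3, and 12.70, 12.66 and 12.54 on day 4. Control replicate 1 was lower than all but 2 of the 12 RANKL arrays. Its largest difference, -0.20 ± 0.11 on day 3, had a 95% interval of -0.44 to 0.05, or 73.6 to 103% of control. By day 4 the difference was -0.01, with an interval of -0.26 to 0.24. Pls1 (10595768), the plastin of microvilli, ranged from 12.38 to 12.92 in controls and from 12.32 to 12.86 on RANKL arrays. Its differences ran from -0.22 ± 0.13 on day 1 to -0.02 ± 0.13 on day 4, with overlap on every day.

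Eps8 (10548905), the capping and bundling protein of the filament tips, read 11.54 to 11.75 in controls and 11.31 to 11.56 on day 1, overlapping ranges with a difference of -0.24 ± 0.13 (adjusted p = 0.429). RANKL day 2 replicate 3 held the highest value of all 15 arrays, 11.96, and the other day 2 arrays read 11.46 and 11.48. The group SD on day 2 was 0.29 for this gene, against 0.03 to 0.16 in the other groups.

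The genes of both membrane linkers had their largest difference on day 3. Ezr (10447602), which ties actin to membrane proteins and is needed for ordered microvilli, read 11.90, 12.22 and 12.21 in controls. The arrays read 11.59, 12.02 and 11.79 on day 1, 12.09, 11.91 and 11.96 on day 2, 11.82, 11.73 and 11.77 on day 3, and 12.23, 12.09 and 11.91 on day 4. Only the day 3 arrays lay wholly below the controls, at -0.34 ± 0.12 (79.2% of control; adjusted p = 0.161), and day 4 overlapped the controls, at -0.03 ± 0.12, with replicate 1 just above the highest of them. Myo1a (10366994), the motor that links bundle to membrane along the sides, ranged from 12.03 to 12.34 in controls and from 11.95 to 12.27 after RANKL. Its largest difference was -0.22 ± 0.10 on day 3 (adjusted p = 0.288).

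Of the members, Myo7b and Cdhr2 of the tip-link complex came nearest to the threshold on day 3. Myo7b (10457967) is the motor that carries the complex to the tips, and it read 11.961, 11.982 and 12.001 in controls. It read 11.58, 11.82 and 11.60 on day 1, 11.82, 11.64 and 11.61 on day 2, and 11.67, 11.64 and 11.45 on day 3. On day 4 it read 11.98, 11.85 and 11.60. The control arrays agreed closely (SD 0.02), and 11 of the 12 RANKL arrays lay below all of them, as they did for at least 11 arrays in 2.84% of all genes. The differences were -0.32 ± 0.10 on day 1 (adjusted p = 0.117), -0.29 ± 0.10 on day 2 (0.197), -0.39 ± 0.10 on day 3 (0.0564) and -0.17 ± 0.10 on day 4 (0.655). On day 3 the 95% interval was -0.611 to -0.175, or 65.5 to 88.6% of control.

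Cdhr2 (10405303), a protocadherin that helps bridge the gap between microvillus tips, read 12.30, 12.56 and 12.62 in controls, 11.98, 12.43 and 12.21 on day 1, and 12.23, 12.12 and 12.46 on day 2. It read 12.08, 11.89 and 12.12 on day 3 and 12.29, 12.28 and 12.27 on day 4. All arrays of days 3 and 4 lay below all controls. Day 3 gave the largest difference of any member, -0.46 ± 0.12 (72.5% of control; adjusted p = 0.0586), and day 4 gave -0.21 ± 0.12 (0.641). Its partner Cdhr5 (10569113) showed a smaller difference, with 12.87 to 13.02 in controls, 12.68 to 12.82 on day 3, and -0.19 ± 0.08 (adjusted p = 0.256). On day 1 Cdhr5 overlapped the controls at -0.03 ± 0.08, with an interval of -0.21 to 0.14.

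Ush1c (10563527), whose product harmonin binds both protocadherins and the myosin, varied least. Controls read 10.39, 10.38 and 10.39, an SD of 0.005. RANKL arrays read 10.17, 10.23 and 10.17 on day 1, 10.23, 10.32 and 10.32 on day 2, 10.23, 10.14 and 10.21 on day 3, and 10.36, 10.31 and 10.28 on day 4. All 12 RANKL arrays lay below all 3 controls, which was so for 0.848% of all genes. The differences were nevertheless small, -0.19 ± 0.06 on day 1 (87.4% of control; adjusted p = 0.0757), -0.10 ± 0.06 on day 2, -0.19 ± 0.06 on day 3 (0.0857) and -0.07 ± 0.06 on day 4.

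For the tip-link genes Cdhr2, Cdhr5 and Ush1c, the sequence around the transcription start is given from the RefSeq promoter table (GRCm38.p6), in windows of 300 bases. That table held 10 starts for 8 of the 10 members, with no entry for Eps8 and Myo7b. Both strands were searched for the core of the CDX factor motif, CATAAA. They were also searched for an HNF4-type motif, CAAAGNNCA. The last motif was that of GATA factors, AGATAA, and none of these contains another. CATAAA was found in 2 of the 10 member windows, those of Cdhr5 and of 1 start of Espn, and in 11.9% of all 32851 windows of 300 bases. The HNF4-type letters (6.36% of all windows) and the GATA letters (11.2%) were in none of the member windows. Capitals mark CATAAA below, and only the Cdhr5 window has it. The windows are chr13:54701213-54701512 (plus strand) for Cdhr2, chr7:141276737-141277036 (minus strand) for Cdhr5 and chr7:46238441-46238740 (minus strand) for Ush1c.
Cdhr2: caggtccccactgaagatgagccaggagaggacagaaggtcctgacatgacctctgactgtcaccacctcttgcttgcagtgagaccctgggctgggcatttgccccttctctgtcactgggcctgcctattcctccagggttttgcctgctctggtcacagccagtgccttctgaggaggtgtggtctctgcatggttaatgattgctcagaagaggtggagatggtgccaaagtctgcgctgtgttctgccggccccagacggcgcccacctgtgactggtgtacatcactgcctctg
Cdhr5: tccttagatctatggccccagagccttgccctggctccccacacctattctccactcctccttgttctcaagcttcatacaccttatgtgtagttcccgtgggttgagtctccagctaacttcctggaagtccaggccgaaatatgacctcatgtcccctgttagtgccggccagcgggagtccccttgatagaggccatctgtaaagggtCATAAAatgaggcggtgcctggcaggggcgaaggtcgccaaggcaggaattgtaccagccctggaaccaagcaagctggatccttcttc
Ush1c: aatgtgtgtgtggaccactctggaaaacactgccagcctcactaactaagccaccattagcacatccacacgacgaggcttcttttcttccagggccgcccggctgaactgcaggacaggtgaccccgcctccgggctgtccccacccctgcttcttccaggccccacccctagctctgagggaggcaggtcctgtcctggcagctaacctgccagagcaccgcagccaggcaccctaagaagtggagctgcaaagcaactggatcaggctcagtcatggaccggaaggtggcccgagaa

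**Figure D2:**
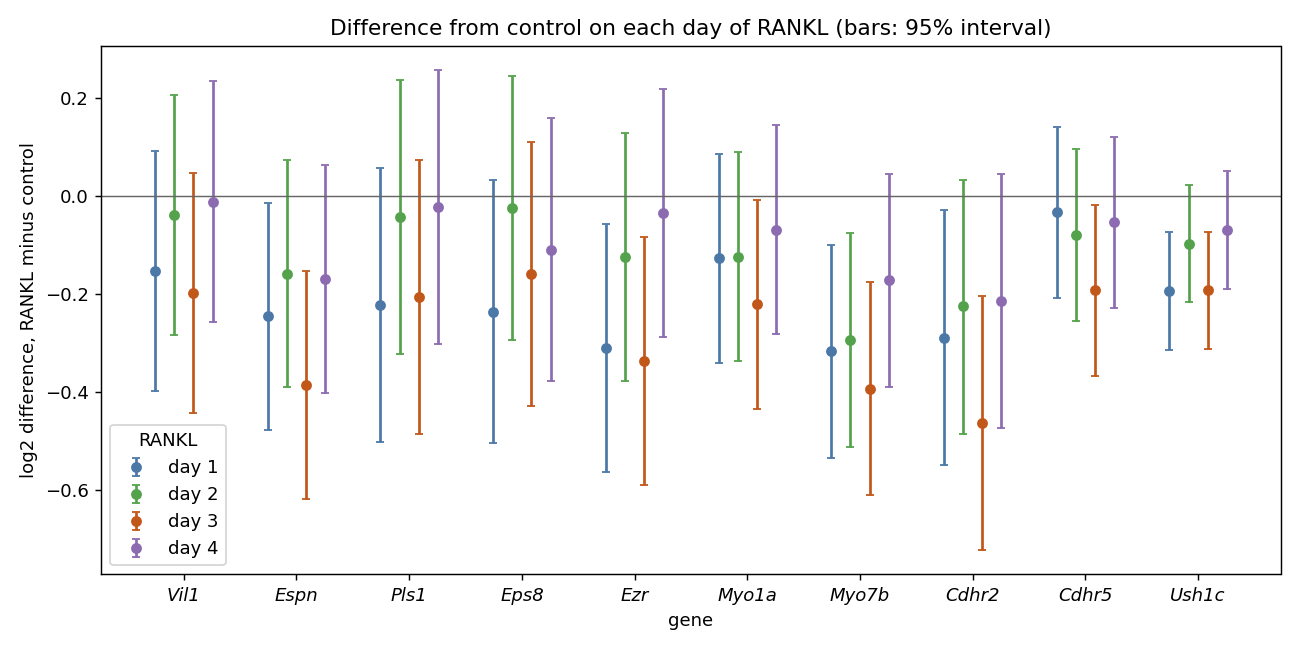
The log2 difference from control for each microvillus gene on each day of RANKL, with its 95% interval from limma (unadjusted; n = 3 arrays per group). All 40 points lie below 0, and the intervals of 5, 1, 7 and 0 members exclude 0 on days 1 to 4.

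Between neighbouring days no member passed the test either. From day 1 to day 2, where 0.201% of all genes were called (6.97% at an unadjusted p under 0.05), 9 of 10 members had a higher mean, by a median of 0.09. That step rested on the day 1 arrays, since the median was 0.007, with 5 members lower, without RANKL day 1 replicate 1 and 0.185 without replicate 2 of that day. From day 2 to day 3 (0% of all genes called; 4.82% at an unadjusted p under 0.05) all 10 means were lower, by a median of -0.15, and 0 members had an unadjusted p under 0.05. From day 3 to day 4 (0.015% called, 5.46% at an unadjusted p under 0.05) all 10 were higher, by a median of 0.19. That p was under 0.05 for 3 members, Ezr, Myo7b and Ush1c, and 4.03% of all genes were higher by that rule. The 3 day 4 arrays lay above all 3 day 3 arrays for 6 members (8.5% of all genes), namely Espn, Cdhr2, Cdhr5, Ush1c, Pls1 and Ezr. The step was largest for Ezr, 0.30 ± 0.12 (adjusted p = 0.746).

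In every group but day 3, most members were lowest on the same array. Control replicate 1 held the lowest control value for 8 of 10 members, with Espn and Ush1c as exceptions, and averaged -0.13 from the control mean, against 0.06 and 0.07 for the other controls. RANKL day 1 replicate 1 was the lowest of its group for all 10 members (mean deviation -0.36), and replicate 2, the array that stood apart, was the highest for 8 (-0.08). RANKL day 2 replicate 2 (-0.21) and RANKL day 4 replicate 3 (-0.15) were each the lowest of their group for 7 members. On day 3 no array was lowest for more than 5 members, and the arrays had mean deviations of -0.25, -0.31 and -0.27. Over the 15 arrays the correlation of a member with the mean of the other 9 standardised members ran from 0.58 (Eps8) to 0.95 (Cdhr2). These values describe arrays that share normalization and groups, and they carry no test. Without control replicate 1 Cdhr2 passed the test on day 3 (adjusted p = 0.0438).

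**Figure D3:**
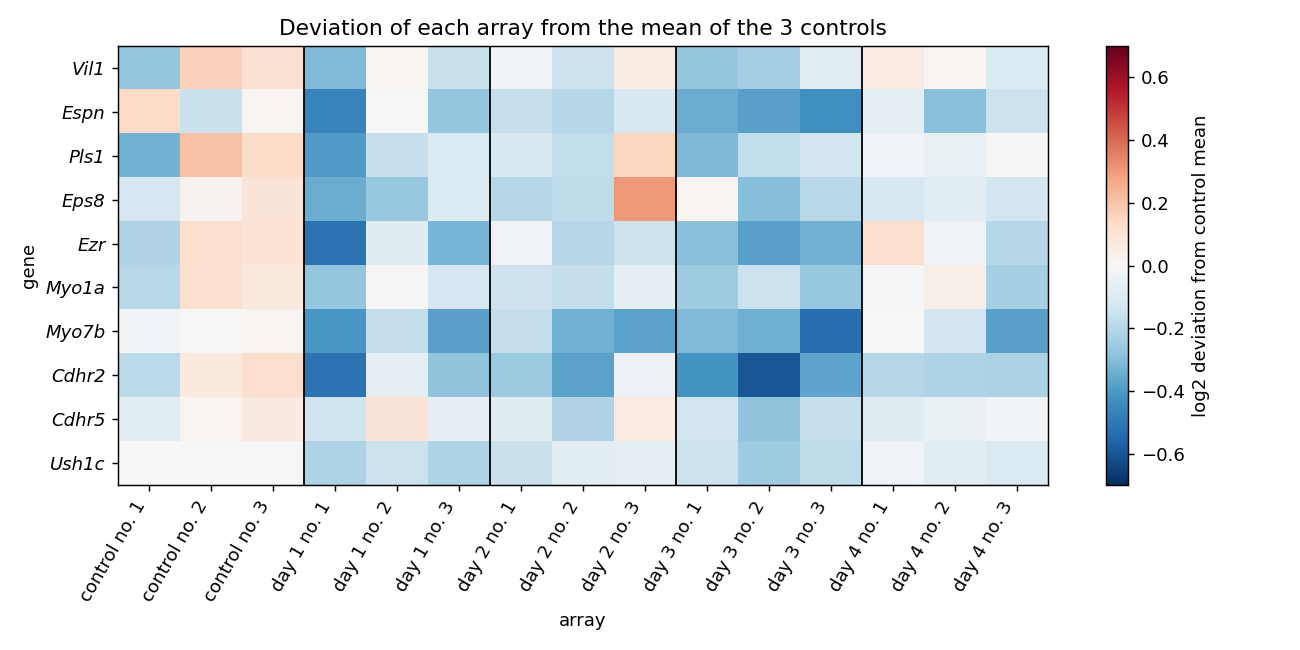
Deviation of each array (columns, by group and replicate number) from the mean of the 3 controls, in log2 units, for each microvillus gene (rows). Blue is lower and red higher than the control mean. Control no. 1 is low for most genes, day 1 no. 1 is low for all 10, and all 3 day 3 arrays are blue for nearly every gene.

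The day 3 result lay close to the threshold and depended on the arrays and weights used. Myo7b passed on that day when RANKL day 1 replicate 2 was left out (adjusted p = 0.0288), and likewise for RANKL day 4 replicate 3 (0.0365). Cdhr2 passed with either replicate 1 (0.0349) or replicate 2 (0.0234) of the day 1 group left out, and with replicate 3 of the day 2 group left out (0.0454). On days 2 and 4 no member was called under any of the 25 settings tried.

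Other microvillus genes included some that did pass the test, more of them lower than higher. Of 33 genes of microvilli and apical transport, 3 fell and 1 rose on day 1, 1 fell and 1 rose on day 2, 5 fell and 1 rose on day 3, and none was called on day 4. Their median differences were -0.11, -0.04, -0.11 and -0.02. Eps8l2, a relative of Eps8, fell by 0.43 on the log2 scale on day 1 (1.35-fold lower; adjusted p = 0.0107), a call that held without each array in turn but not in a fit of the 2 groups alone (0.0891). Myo1c, another class I myosin, rose by 0.58 ± 0.08 (1.49-fold; 0.00113) on day 1 and its call also held without each array. Myo1d, a further class I myosin, fell by 0.53 on that day (0.0179), a call lost without control replicate 1 (0.0662) or control replicate 3 (0.0539), and with the 2 groups alone (0.0701). Cobl, an actin nucleator that promotes microvilli, fell by 0.56 on day 3 (0.0224), which was lost without control replicate 2 (0.0574), control replicate 3 (0.0963), or replicate 1 (0.0544) or 3 (0.116) of day 3. The calls of the 5 day 3 falls (Cobl, Baiap2l2, Eps8l2, Clic5 and Stx3) and of the day 3 rise of Myo1c depended on the arrays used. None of these 6 calls was kept without control replicate 3 (adjusted p of 0.0623 for Eps8l2 to 0.114 for Myo1c) or without replicate 3 of day 3 (0.0966 for Eps8l2 to 0.158 for Baiap2l2). The 5 falls were -0.562 to -0.391 with all arrays and -0.488 to -0.378 without control replicate 3. They were -0.488 to -0.346 without replicate 3 of day 3. The rise of Myo1c was 0.340 with all arrays, and 0.343 and 0.364 in those fits. Of all genes, 590 were called on day 3 with all arrays, and 270 and 236 in those fits. On day 2 the rise of Myo1c was also lost without any 1 control array (0.0562 to 0.142), and the fall of Baiap2l2 without control replicate 1 (0.17) or 3 (0.142). Both day 2 calls were lost as well without any 1 day 2 array (0.0584 to 0.155 for Myo1c, 0.0947 to 0.151 for Baiap2l2). Further fits lost them too, among them median centring and the 2 groups alone. The Ush1c partner Anks4b is another part of the tip-link complex. It stood at -0.41 ± 0.13 on day 1 (adjusted p = 0.116) and -0.34 ± 0.13 on day 3 (0.204). All arrays of both days lay below the controls for this gene, and those of days 2 and 4 overlapped them.

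In the terminal web, the actin and myosin layer in which microvilli are rooted, the called genes were higher. Of 14 measured genes, 2 rose on day 1, 2 on day 2 and 1 on day 3, and none fell. The medians of this list (-0.012, -0.020, -0.003 and 0.032) were close to those of all genes, and 8, 8, 7 and 5 of the 14 means lay below control. Myh14, another nonmuscle myosin heavy chain, was not called. All its RANKL arrays nevertheless lay below all controls, as for 0.848% of all genes. Its difference was -0.27 ± 0.07 on days 2 and 3 (limma adjusted p = 0.0616 and 0.0565). Myh9, a nonmuscle myosin heavy chain, rose by 0.52 ± 0.07 on day 1 (adjusted p = 0.000905), and Actn1, an actin cross-linker of the alpha-actinin family, by 0.54 ± 0.10 on day 3 (0.00865). Both of these calls held without each array in turn but were lost with median centring (0.0781 and 0.0551), and that of Myh9 also with the mean of its probe sets (0.298). The day 2 calls did not hold in this way. Myh9 on day 2 was lost without control replicate 1 (0.165), 2 (0.110) or 3 (0.0904), and Actn1 without control replicate 2 (0.142) or 3 (0.174), so that neither call was kept without control replicate 2 or without control replicate 3. Actn1 on day 1 was lost without the same controls (0.151 and 0.162).

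Transcription factors of enterocyte identity showed no called gene. Of 12 measured, 0 passed on any day by limma. Means lay below control for 6, 6, 8 and 8 of them on days 1 to 4, with medians of 0.004, 0.010, -0.040 and -0.082. The largest differences were positive, at 0.73 ± 0.33 and 0.77 ± 0.33 on days 1 and 2 for Gata4, a zinc finger factor of the proximal intestine (adjusted p = 0.310 and 0.352). Hnf4a, a nuclear receptor that maintains enterocyte genes, ranged from -0.08 to 0.13 ± 0.09 from control, and its relative Hnf4g from -0.37 ± 0.12 on day 3 (adjusted p = 0.122) to -0.11. The intestinal homeobox factor Cdx2 stood at -0.23 ± 0.11 on days 2 and 3 (0.420 and 0.320).

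Apical enzymes, the other products by which an enterocyte surface is known, lay below control on day 3 as well. Of 14 measured enzyme genes 12 had a lower mean on that day and 2 fell, with a median of -0.20, and none was called on days 1, 2 and 4 (medians -0.07, -0.02 and -0.01). Mep1a, a metalloprotease subunit of the brush border, was lower by -0.99 ± 0.23 (1.98-fold; adjusted p = 0.0353) and Naaladl1, an apical peptidase, by -0.40 ± 0.09 (0.0309). The call of Mep1a was lost without control replicate 1 (0.0508), control replicate 2 (0.0981), control replicate 3 (0.132), replicate 1 of day 2 (0.0514), replicates 2 (0.127) and 3 (0.105) of day 3 or replicate 1 of day 4 (0.0518). That of Naaladl1 was lost without control replicate 1 (0.0696), 2 (0.0834) or 3 (0.0975), or replicate 2 (0.108) or 3 (0.0721) of day 3.

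**Figure D4:**
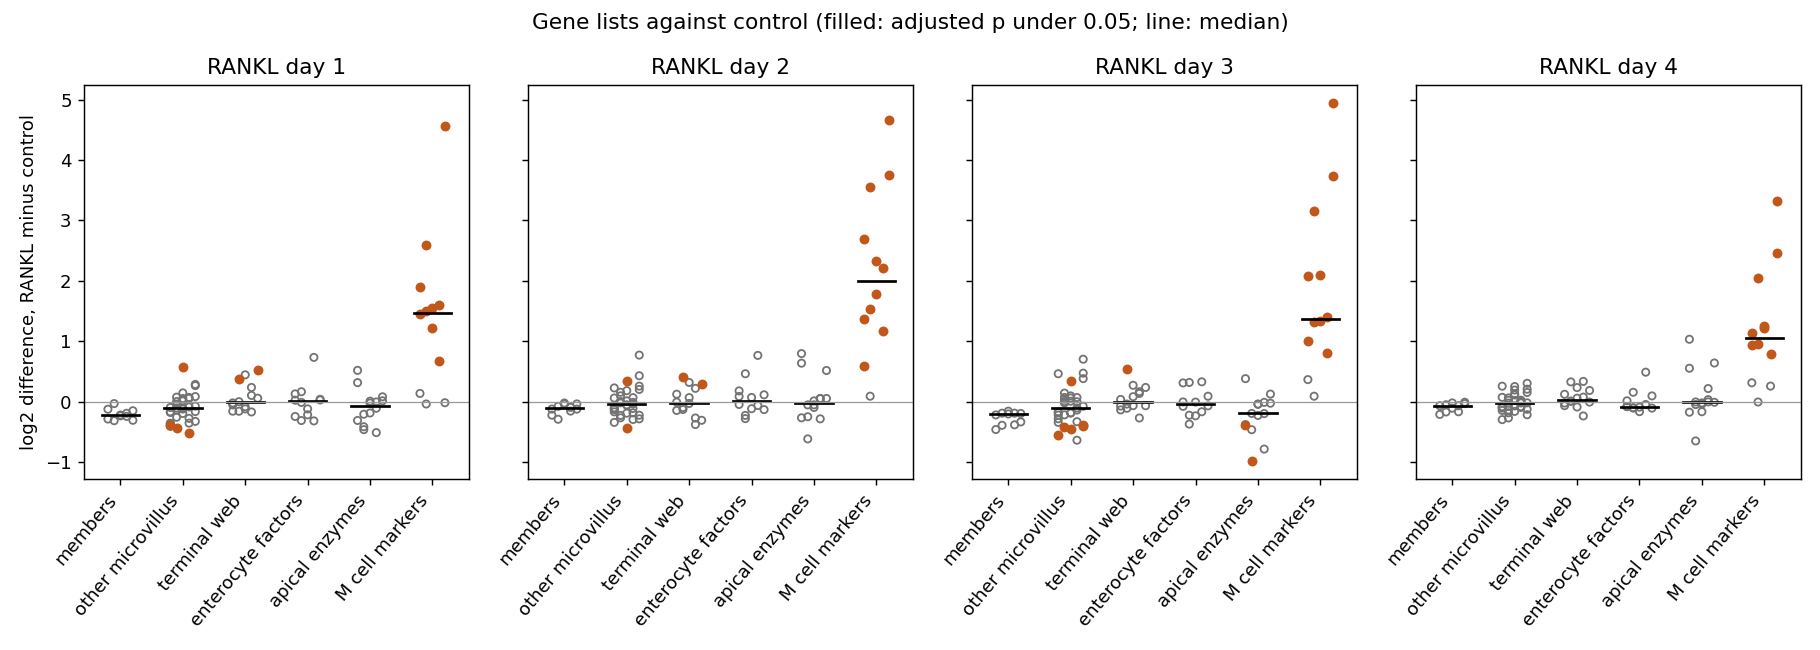
Log2 difference from control on each day for the 10 microvillus genes and 5 other lists (points are genes; filled points passed an adjusted p under 0.05; lines are medians). The 10 genes form a narrow band just below 0 on every day, while 9 to 11 of 12 M cell markers are called higher.

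Markers of other cells moved on the same days. The summed linear intensity of the 12 M cell markers was 4907 to 5616 in controls and 16363 to 20248 on day 3, whereas the 10 members summed to 40720 to 48587 in controls and 37204 to 38853 on day 3. The 14 apical enzyme genes summed to 85487 to 102181 and 80393 to 88550. Crypt genes (7 markers of stem and dividing cells) summed to 5522 to 6505 in controls and 9119 to 10063 on day 3, with all 7 means above control, though 0 of 7 were called on that day. Tuft cell markers, genes of chemosensory cells with a prominent apical tuft, rose in 5 of 8 on day 3 and 6 of 8 on day 4, from sums of 955 to 1033 up to 1339 to 1490 and 1575 to 1805. Enteroendocrine markers rose in 1 of 8 on day 3 and 4 of 8 on day 4. None of 7 lymphocyte and 5 goblet markers was called on any day, and 1 of 7 stromal and 1 of 5 Paneth markers fell (Vim on day 1 and Lyz1 on day 2). Among 5 myeloid markers Itgam rose on day 2 and Csf1r fell on day 1, and of the crypt genes Ascl2 rose on day 1. The part of any of these cell types in the levels of the microvillus genes was not tested.

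The 5 genes whose profile over the 15 arrays was most like the mean standardised profile of the members were Zzef1 (Pearson r = 0.95), Dpyd (0.93), Xpnpep2 (0.93), Spint1 (0.92) and Myo15b (0.92). Dpyd encodes the enzyme that starts pyrimidine breakdown, Xpnpep2 a membrane-bound aminopeptidase and Spint1 an epithelial protease inhibitor. Dpyd stood at -0.71 ± 0.14 on day 3 and was the one called among the 5 (adjusted p = 0.0173). The r values were picked as the highest of all genes and are a description with no test.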

How the data were processed

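Biotin-labelled RNA was read on Affymetrix arrays, per the labels' protocols. The deposited table holds linear intensities (25.95 to 24106.7) of 28853 probe sets. The submitters' processing notes name the build mm9; how probe sets were summarised or normalized is not stated there. The deposited intensities were log2 transformed, no offset being added, and since the log2 medians of the arrays spanned 0.18 (limit 0.1), quantile normalized. The 21789 probe sets with 1 symbol gave 19938 genes, by the highest mean over the 15 arrays. limma 3.58.1 in R 4.3.3 fitted 1 mean per group to all arrays (10 residual and 3.49 prior degrees of freedom), unadjusted 95% intervals included. Tests were two-sided, and the method was tested on simulated data. That simulation drew independent noise for each array and added changes larger than any member's difference. It therefore does not show how often differences of the members' size would be called.

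The members, lists and rule for naming genes (all members, the 5 most alike genes, up to 4 called genes per list) were chosen with earlier results of these data known. The alternatives comprised no scaling or median centring, adding 16 before log2, dropping the dimmest 40% of genes, means of probe sets, other priors, array weights, 2 groups alone, a replicate block and each array left out. The number of arrays limits precision, and scan dates were not used.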

Additional observations from a re-analysis of the deposited data

Results flagged for a closer look

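Among the genes named beside the microvillus genes, 2 M cell markers changed from one day of RANKL to the next, by the test of that difference itself. Gp2 was higher on day 2 than on day 1 by 3.77 ± 0.35 on the log2 scale (limma adjusted p = 0.000335) and Tnfaip2, linked to membrane protrusions, by 1.24 ± 0.22 (0.0428). None of the 10 microvillus genes met that test between neighbouring days. From day 1 to day 2, 40 of all genes were called with all arrays. That count was 7 to 53 with 1 array left out and 5 to 711 under the other settings. Whether the calls of Gp2 and Tnfaip2 held in those fits is not given here. Groups of 3 arrays were too small for a search for single outlying arrays.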

How the results depend on the processing

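Of 1000 combinations of a member, a day and an alternative setting, 946 kept the direction and stayed on the same side of the threshold, 29 passed it and 25 changed sign. In many of these combinations the direction could not change, so the 946 is no measure of stability. The difference stays the same when an array outside the 2 groups compared is left out. It also stays the same with other priors, the 2 groups alone, the replicate block or means of probe sets. On day 1, where 0 members were called, the count was 1 with median centring (Espn, adjusted p = 0.0411), 1 with an offset of 16 (Ush1c, 0.0412), 4 with array weights (Myo7b, Cdhr2, Ush1c and Ezr) and 1 with weights estimated gene by gene. On day 3 it was 2 with the dimmest 40% of genes left out (Myo7b and Cdhr2), 5 with array weights (Espn as well) and 4 with gene by gene weights, and the F test went from 0 to 5 and 1 with these weights. Array weights stopped before convergence, so the gene by gene estimate was added after the data were seen. The replicate number as a block gave 2 calls on day 3 (Myo7b, 0.0359, and Cdhr2, 0.0493) and 0 in the other comparisons. The labels do not say that a number marks a shared litter or batch, so the block is not given as a paired result. Yet 19 of 30 same-numbered pairs of arrays had deviations correlated above 0.1 (-0.20 to 0.50, median 0.14). In addition, 12 of 15 arrays correlated best with an array of their own number. The reported fit takes no account of such likeness, and its source was not tested. Leaving out 1 array gave 0 to 1 members on day 1, 0 to 3 on day 3 and 0 in the other comparisons.

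The differences that changed sign were all uncalled and near 0. With the values as deposited Ezr on day 4 was 0.006, and with median centring the day 4 differences were 0.01 for Vil1, 0.004 for Myo1a, 0.033 for Ush1c, 0.015 for Pls1 and 0.043 for Ezr. Leaving out 1 array gave day 4 ranges of -0.145 to 0.069 for Vil1, -0.164 to 0.016 for Myo1a, -0.188 to 0.08 for Pls1 and -0.139 to 0.05 for Ezr. On day 2 the ranges were -0.173 to 0.041 for Vil1, -0.209 to 0.059 for Pls1 and -0.189 to 0.064 for Eps8, and on day 1 -0.096 to 0.018 for Cdhr5. All 10 members stayed below control on day 3 under all 25 settings, though many of these settings leave the day 3 differences as they were. The count of all genes called on day 1 was 785, with 445 to 1005 when 1 array was left out and 269 to 1517 under the other settings, and on day 3 it was 590, with 236 to 1189 and 257 to 1322. On days 2 and 4 the counts were 513 (283 to 930) and 181 (94 to 338). The causes were not tested.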

Other observations

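Some relatives of the microvillus proteins passed the test. Among 45 measured genes of the same families, a list chosen after the values were seen and given as values only, 2, 1, 1 and 2 rose and 5, 2, 3 and 0 fell on days 1 to 4. The share of all genes called was 3.94%, 2.57%, 2.96% and 0.908%. This list overlaps that of the other microvillus genes, and the calls of Myo1c, Eps8l2, Myo1d and Myo5b are counted in both. The median differences of the 45 genes were -0.075, -0.053, -0.021 and -0.021, nearer 0 than those of the 10 genes. Scin had the largest difference on days 1 to 3. Its product scinderin is a calcium-dependent actin-severing relative of villin. The Scin transcript stood at 10.28 on day 1, 10.23 on day 2 and 10.47 on day 3 against 11.13 in controls (mean log2 intensity, n = 3). These were falls of 0.85, 0.90 and 0.66 (1.80-, 1.87- and 1.58-fold lower; limma adjusted p = 1.02e-05, 5.08e-06 and 0.000134), and all 3 calls held under all alternatives tried. On day 4 the difference was -0.21 ± 0.07 (0.289).

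Myo7a, the class VII myosin of hair cells and the closest relative of Myo7b, was lower by -0.75 ± 0.10 on day 1 (adjusted p = 0.000752) and -0.54 ± 0.10 on day 3 (0.0106), and both calls held under all alternatives tried. Its fall on day 2 (-0.48 ± 0.10, adjusted p = 0.0198) was lost without any 1 of the control or day 2 arrays (0.0513 to 0.074). Svil, a membrane-associated villin relative, rose by 0.62 ± 0.11 on day 1 (0.00547), a call lost in a fit of the 2 groups alone (0.0776).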
